A study of Homo sapiens with 9 samples.

Results

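The 54 genes described here encode splicing regulators, and they were taken by symbol alone from the 60660 genes of the count matrix. Protein-coding genes whose symbol starts with HNRNP, or with SRSF and a digit, were included, together with SRRM1, SRRM2, TRA2A, TRA2B, PTBP1, PTBP2, PTBP3, RBFOX2, ESRP2, MBNL1, MBNL2, MBNL3, CELF1, QKI and RBM20. They fall into 12 SR proteins, 4 SR-related proteins, 9 genes of the hnRNP A/B and D types, 5 of the hnRNP C type, 4 of hnRNP F/H, 5 of the PTB and hnRNP L types, 7 of the hnRNP K, M, R and U types and 8 developmental regulators. Of the 54, 49 had enough reads to be tested. The 5 others were HNRNPCL1, HNRNPCL2, HNRNPCL3 and HNRNPCL4, which are copies of HNRNPC, and the readthrough gene HNRNPUL2-BSCL2, none of which held more than 8 counts in any library.

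The data are RNA-seq counts of OVCAR3, a human epithelial ovarian carcinoma cell line that expresses CTCFL, the testis-specific paralog of the insulator protein CTCF that is also called BORIS. Control, CTCFL-OE and CTCFL-KD comprised 3 libraries each, and each library came from 1 biological replicate pooled from technical replicates. CTCFL-OE cells received 2 µg of the plasmid pCpGfree-vitroHBORIS with the CTCFL open reading frame and were collected 48 h later, while the paper's methods name the LacZ plasmid pCpGfree-vitroHLacZ for Control, whose label gives no CTCFL treatment. CTCFL-KD cells were treated with siRNAs against CTCFL in knockdown experiments of an earlier publication, so they did not share a transfection with the plasmid Control, and an siRNA control was not analysed here. For CTCFL-KD against Control, the knockdown and the separate experiment cannot be told apart, and all comparisons against Control share the same 3 Control libraries. Transient transfection and siRNA treat a mixed culture, and in such bulk libraries fewer expressing cells and less RNA per cell cannot be told apart.

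SR proteins carry a domain rich in arginine and serine, bind mostly to exonic enhancers and help the spliceosome to recognise the adjoining splice sites. The hnRNP proteins coat nascent transcripts and often act against the inclusion of exons, so the balance between both classes is part of how an exon is chosen. Many of these genes control their own level through exons that send the transcript to decay. Other members, such as the MBNL, CELF, RBFOX, ESRP and RBM20 proteins, set splicing patterns of differentiated tissues such as muscle, heart, brain and epithelium.

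The targeted gene, CTCFL (chr20:57495966-57525652, minus strand, GRCh38), had 6, 9 and 10 counts in Control, 36, 34 and 72 with CTCFL-OE and 0, 1 and 0 with CTCFL-KD. All CTCFL-OE libraries lay above and all CTCFL-KD libraries below the Control libraries. Total counts ranged from 14332622 to 24490080 per library. CTCFL-KD replicate 1 stood apart, with the lowest total, a TMM scaling factor of 0.775 against 0.945 to 1.09 in the other 8 libraries, and lower values for genes with long transcripts. Mitochondrial genes took 6.16% to 6.52% of the counts in Control, 7.40% to 14.9% in CTCFL-OE and 7.80% to 11.8% in CTCFL-KD. All 13 epithelial and ovarian carcinoma markers had a mean above 1 CPM in every group, with summed levels of 6130 to 6260 CPM in Control, 5320 to 5700 in CTCFL-OE and 10400 to 17600 in CTCFL-KD, where 9 of the 13 rose and 2 fell. Of the 6 immune markers none had a mean above 1 CPM in Control or CTCFL-OE and 1 did in CTCFL-KD, CD14, which rose there to 3.07, 1.31 and 1.37 CPM (log2 fold change 3.84). Their sums were 0.2 to 0.456 CPM in Control, 0.41 to 1.11 in CTCFL-OE and 2.08 to 3.52 in CTCFL-KD, and MS4A1 was at 0. Of 4 endothelial markers 3 had a mean above 1 CPM in Control, 2 with CTCFL-OE and 2 with CTCFL-KD, with sums of 8.05 to 9.09, 11 to 12 and 11.1 to 19.9 CPM. In CTCFL-KD, KDR rose (2.73) and PECAM1 fell (-2.56). Of 10 fibroblast markers 1 had a mean above 1 CPM in Control, 1 with CTCFL-OE and 2 with CTCFL-KD, with sums of 28.0 to 33.8, 25 to 44.2 and 37.8 to 43.0 CPM, and COL1A2 was at 0 in Control and at 14.1, 14.2 and 13.5 CPM in CTCFL-KD. The part of these differences in the results below was not tested.

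RBM20, an RNA-binding splicing repressor known for its action on titin in the heart, was the member that changed most in both conditions, and its promoter is shown because the study lists a predicted CTCFL binding site there. The gene (ENSG00000203867.8) lies on chr10:110644336-110839468, plus strand, in GRCh38. The 250 bases before its start, chr10:110644086-110644335 in the RefSeq annotation of GRCh38.p14, read as follows on the plus strand, with the letters of the listed site in capitals.
RBM20 promoter: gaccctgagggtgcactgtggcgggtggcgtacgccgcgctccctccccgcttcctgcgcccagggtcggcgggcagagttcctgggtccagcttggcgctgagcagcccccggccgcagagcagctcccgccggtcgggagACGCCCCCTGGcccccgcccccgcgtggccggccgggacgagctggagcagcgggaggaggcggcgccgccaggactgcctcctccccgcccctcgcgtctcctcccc
Found here by its letters, the site starts at base 143 of this window, at chr10:110644228-110644238, a single base before the position in the study's list, and is written on the opposite strand as CCAGGGGGCGT. These letters are those listed for RBM20, so their presence there was given beforehand and is no result. Searched on both strands in promoter windows of 300 bases, they were found in 38 of 34796 windows, or 0.109%, and in no other member among the 46 with a window. Its inner letters AGGGGGC, which overlap it, were far more common, with 4988 windows (14.3%) and 13 of the 46 members (28.3%): CELF1, HNRNPA3, HNRNPDL, HNRNPK, HNRNPL, HNRNPU, MBNL3, PTBP1, RBM20, SRRM1, SRSF12, SRSF7 and SRSF9, where RBM20 again holds them by its listed site.

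In Control cells, the members spanned a wide range of levels, from the most abundant hnRNPs to regulators that were barely expressed. Levels between genes were compared as CPM per kb of the canonical transcript, where CPM is the read count scaled to a common library size by TMM. HNRNPA1, a shuttling repressor of exons, and HNRNPA2B1, its paralog, led with 294 ± 14.4 and 293 ± 28.8 (SD, n = 3), and their libraries overlapped. HNRNPK, which binds stretches of C, followed with 232 ± 4.51, HNRNPC, which binds stretches of U, with 202 ± 3.11, and HNRNPH1, which binds runs of G, with 167 ± 3.18, each separated from its neighbours in all libraries. HNRNPAB had 139 ± 2.24 and did not separate from PTBP1, the general repressor that binds polypyrimidine tracts, at 138 ± 5.75.

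The SR proteins were less abundant than the leading hnRNPs on the per-kb scale. SRSF2 was the highest with 99.3 ± 2.99 CPM per kb and overlapped SRSF9 with 95.4 ± 2.89, whereas SRSF1 had 23.0 ± 1.08. At the lower end stood PTBP2, the neuronal paralog of PTBP1, with 4.33 ± 0.441, MBNL3 with 1.3 ± 0.0975, RBM20 with 0.536 ± 0.0479 and SRSF12 with 0.434 ± 0.0464, the last 2 of which overlapped. HNRNPA1L2 and HNRNPA1L3 are near-identical copies of HNRNPA1, and how reads shared between such copies were counted is not stated, so the levels of these 3 genes are uncertain.

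**Figure D1:**
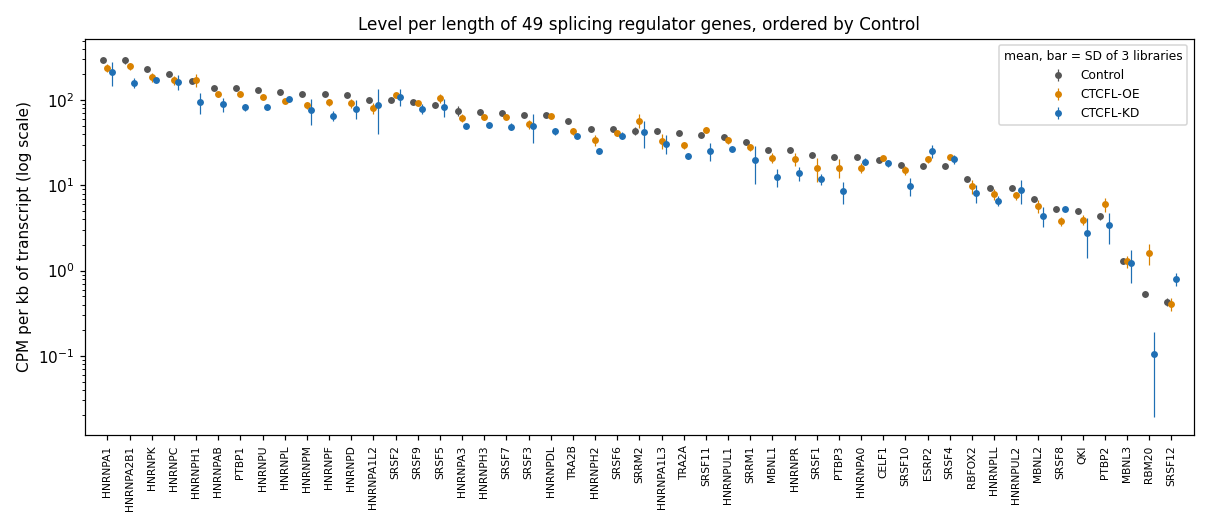
Mean CPM per kb of canonical transcript (log axis) of the 49 tested members in Control, CTCFL-OE and CTCFL-KD, ordered by Control, with bars for the SD of 3 libraries. HNRNPA1 and HNRNPA2B1 lead at 294 and 293, and RBM20 and SRSF12 are the lowest at 0.536 and 0.434 in Control.

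CTCFL-KD against Control asked how the members stood when CTCFL was depleted. Of the 49 tested splicing regulators, 23 fell and 2 rose at an adjusted p under 0.05, and the others did not pass. Of all 17794 genes tested, 38.2% passed in either direction. The lower side held 46.9% of the members and 16.8% of all genes tested, and 20.8% of the protein-coding genes at 10 CPM or more. On the higher side, 21.4% of all genes rose, against 4.08% of the members. The median log2 fold change of the members was -0.52, that of all genes tested 0.08 and that of the abundant protein-coding genes -0.04, and 44 of the 49 members had a value below zero. All 3 CTCFL-KD libraries lay below all 3 Control libraries in 34 members (69.4%), where 27.6% of all genes and 34.3% of the abundant coding genes did so. DEGs, which also needed a log2 fold change beyond 1, were RBM20, PTBP3 and MBNL1, all lower, against 7.94% of all genes that were DEGs on that side.

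Summed over the members, the raw counts were 1.18%, 1.25% and 1.21% of all counts in the Control replicates, without TMM scaling. They were 1.17%, 1.02% and 0.926% with CTCFL-OE, and 0.663%, 0.820% and 0.771% with CTCFL-KD. On these unscaled shares the Control libraries stood above every CTCFL-OE and CTCFL-KD library, by a small margin for CTCFL-OE replicate 1. The TMM factor of CTCFL-KD replicate 1 was 0.775, so the order of libraries within a group need not hold after scaling.

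**Figure D2:**
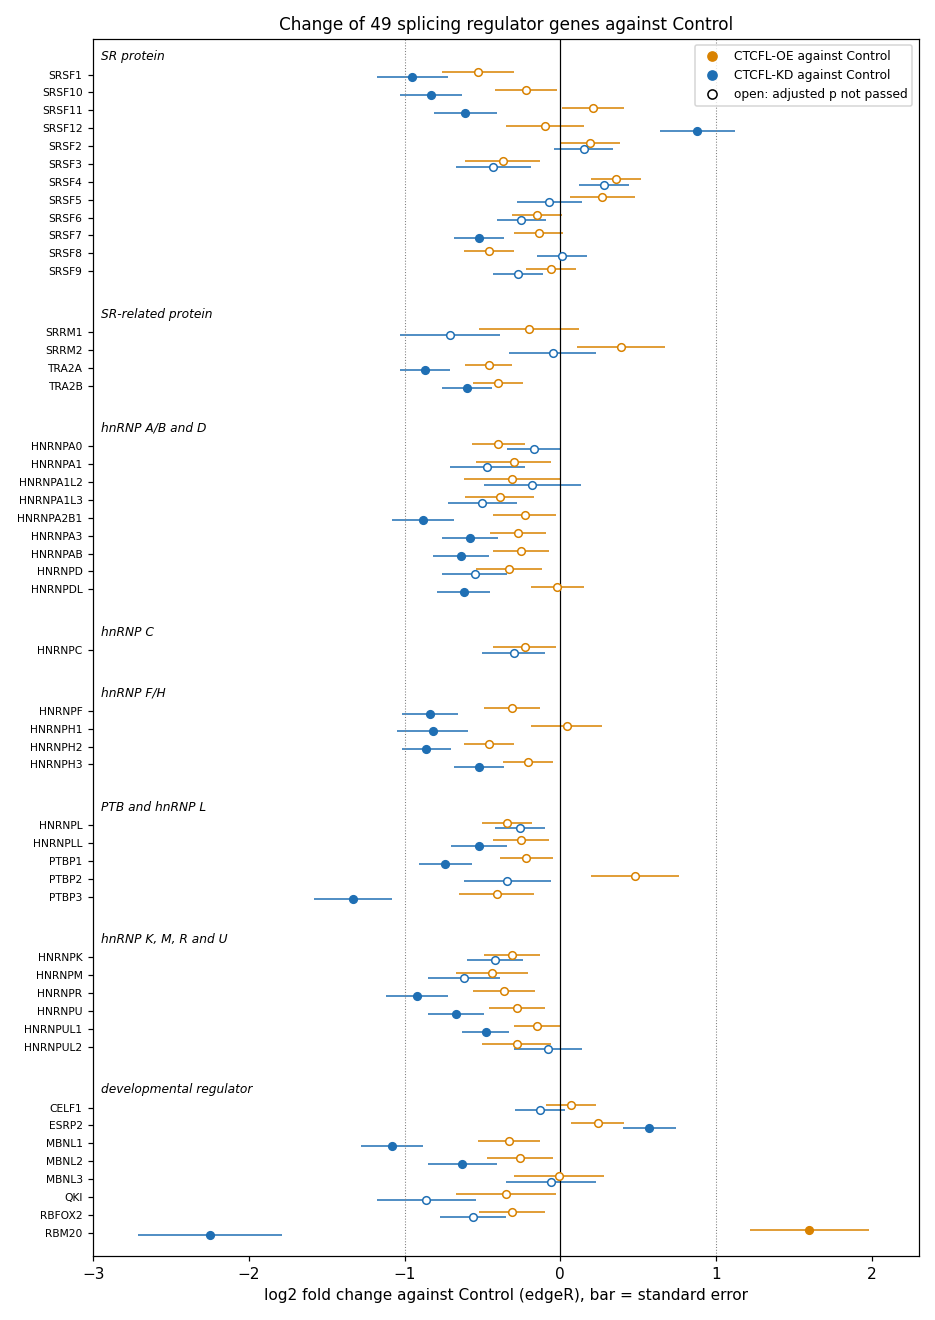
log2 fold change with its standard error of each tested member in CTCFL-OE (orange) and CTCFL-KD (blue) against Control by edgeR, grouped by role, with filled points where the adjusted p passed (under 0.1 for CTCFL-OE, under 0.05 for CTCFL-KD) and dotted lines at the DEG limit. Filled blue points are mostly on the lower side (23 of 25), and RBM20 is the sole filled orange point, at 1.60.

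Among the 12 SR proteins, SRSF1, SRSF7, SRSF10 and SRSF11 fell in CTCFL-KD and SRSF12 rose, with a group median of -0.26. SRSF1, the founding SR protein and a known oncogene, stood at 122, 117 and 129 CPM in Control and at 55.1, 62.1 and 74.2 in CTCFL-KD (log2 fold change -0.95, SE 0.23, adjusted p = 0.00781, and -0.54 with offsets for transcript length and GC content). Every knockdown library was below every Control library. SRSF10, which represses splicing once dephosphorylated in heat shock, dropped from 130, 135 and 135 to 54.3, 86.0 and 84.6 CPM (log2 fold change -0.83, SE 0.20, adjusted p = 0.00843, and -0.35 with the offsets). SRSF7, a zinc knuckle SR protein that also acts in mRNA export, went from 160, 171 and 164 to 126, 115 and 104 CPM (-0.52, SE 0.16, adjusted p = 0.0217). SRSF7 passed in 4 of the 9 fits with 1 library left out. SRSF12, a weakly expressed relative of SRSF10, was the one SR protein that rose, from 1.45, 1.75 and 1.47 to 2.80, 2.44 and 3.40 CPM (0.88, SE 0.24, adjusted p = 0.0154), again with no overlap. With the offsets it was 1.26, beyond the DEG limit (adjusted p = 0.00122), and it did not pass without Control replicate 1 or 3 or CTCFL-KD replicate 3.

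The 7 other SR proteins did not pass, with log2 fold changes between -0.43 for SRSF3, the smallest SR protein, and 0.28 for SRSF4. The knockdown values of SRSF3 were 300, 170 and 164 CPM, with replicate 1 above and the others below the Control values of 290, 276 and 290 CPM. Without replicate 1 SRSF3 passed (-0.77, adjusted p = 0.0008), and with the offsets it had 0.02. SRSF2 had 261 CPM in replicate 1 and 190 and 171 in the others, where Control had 194, 183 and 186. SRSF8 was the member closest to no difference from Control in CTCFL-KD (log2 fold change 0.01, SE 0.16).

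Both TRA2 genes, whose products bind enhancers rich in GAA, fell in CTCFL-KD. TRA2A had 71.0, 73.6 and 73.2 CPM in Control and 43.8, 38.5 and 37.0 in CTCFL-KD (log2 fold change -0.87, SE 0.16, adjusted p = 0.00157), the lowest p of all members. TRA2B went from 239, 230 and 244 to 157, 162 and 151 CPM (-0.60, SE 0.16, adjusted p = 0.0137), but had -0.28 and did not pass with the offsets (adjusted p = 0.159). The libraries of both genes were tight and did not overlap. The splicing coactivator SRRM1 and the nuclear speckle scaffold SRRM2 did not pass, and in both CTCFL-KD replicate 1 lay far under its fellows, at 33.5 against 93.6 and 93.5 CPM for SRRM1 and at 229 against 480 and 441 CPM for SRRM2. Without that library SRRM1 passed (-0.36, adjusted p = 0.0225) and SRRM2 went from -0.05 to 0.22, which did not pass (adjusted p = 0.311).

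In the hnRNP A/B and D group, all 9 members had values below zero, and HNRNPA2B1, HNRNPA3, HNRNPAB and HNRNPDL fell. HNRNPA2B1 had 982, 1180 and 1030 CPM in Control, 1010, 858 and 846 with CTCFL-OE and 668, 548 and 517 with CTCFL-KD (log2 fold change in CTCFL-KD -0.88, SE 0.20, adjusted p = 0.00582). All its knockdown libraries were below the others. With the offsets the value was -0.47 and did not pass (adjusted p = 0.0868). HNRNPA1 had 1060, 1160 and 1080 CPM in Control and 1090, 684 and 625 in CTCFL-KD, with replicate 1 within the Control range, and did not pass (-0.47, SE 0.24, adjusted p = 0.144), whereas without replicate 1 it did (-0.75, adjusted p = 0.00162). HNRNPAB went from 241, 248 and 248 to 192, 148 and 133 CPM (-0.64, SE 0.18, adjusted p = 0.0184, and -0.99 with the offsets). HNRNPDL, an AU-rich element binder, and HNRNPA3 fell by 0.62 and 0.58 on the log2 scale, and HNRNPA3 had -0.08 with the offsets. HNRNPD, which binds AU-rich RNA, did not pass (-0.55, adjusted p = 0.0577) but did with the replicate block (adjusted p = 0.0455). HNRNPC, the tested member of its type, had 628, 640 and 647 CPM in Control and 634, 466 and 454 in CTCFL-KD, with replicate 1 among the Control libraries, and did not pass (-0.30, SE 0.20, adjusted p = 0.260), while it did without that library (-0.47, adjusted p = 0.0153). With the offsets HNRNPA1 had -0.18 and HNRNPC -0.01.

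hnRNP F/H was the group in which every member fell: HNRNPF, HNRNPH1, HNRNPH2 and HNRNPH3, with a median of -0.83. HNRNPF and HNRNPH2 passed in all 9 fits with 1 library left out, HNRNPH1 in 7 and HNRNPH3 in 4. HNRNPF stood at 300, 302 and 307 CPM in Control and at 143, 184 and 181 in CTCFL-KD (log2 fold change -0.84, SE 0.18, adjusted p = 0.00395). HNRNPH2 stood at 102, 109 and 108 and at 55.6, 63.0 and 56.7 CPM (-0.86, SE 0.16, adjusted p = 0.00225), which was 44.9% lower. HNRNPH1 stood at 377, 381 and 367 and at 150, 259 and 227 CPM (-0.82, SE 0.23, adjusted p = 0.0172). In none of the 4 genes did a knockdown library reach the lowest Control library. HNRNPH1 and HNRNPH2 are close paralogs, and how reads common to both were counted is not stated.

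Of the PTB and hnRNP L genes, PTBP1, PTBP3 and HNRNPLL fell. PTBP3 (ENSG00000119314.16, chr9:112217716-112333664, minus strand), a PTBP1 paralog with broad RNA-binding roles, had 154, 145 and 165 CPM in Control, 150, 97.8 and 101 with CTCFL-OE and 42.0, 66.2 and 76.5 with CTCFL-KD. For PTBP3 the log2 fold change in CTCFL-KD was -1.33 (SE 0.25, adjusted p = 0.00212), 60.1% lower, and the largest among members above 10 CPM. With offsets for transcript length and GC content it was -0.87, under the DEG limit, and still passed. PTBP1 had 452, 422 and 456 CPM in Control and 236, 288 and 272 in CTCFL-KD (-0.74, SE 0.17, adjusted p = 0.00628). HNRNPLL passed (-0.52, adjusted p = 0.0393) but not with the replicate number as a block (adjusted p = 0.0657), nor with the offsets (-0.13). PTBP2, which PTBP1 represses in cells outside the nervous system, did not pass (-0.34, SE 0.28, adjusted p = 0.363).

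HNRNPR, HNRNPU and HNRNPUL1 fell in the last hnRNP group. HNRNPR, which binds mRNA and small nuclear 7SK RNA, had 193, 208 and 208 CPM in Control and 85.7, 121 and 116 in CTCFL-KD (log2 fold change -0.92, SE 0.20, adjusted p = 0.00431). HNRNPU, a chromatin-bound scaffold protein, had 848, 925 and 927 CPM and 528, 593 and 578 CPM (-0.67, SE 0.18, adjusted p = 0.0128). The libraries of both genes did not overlap. With the offsets neither passed, with -0.38 for HNRNPR (adjusted p = 0.0756) and -0.32 for HNRNPU (adjusted p = 0.172). HNRNPK went from 654, 678 and 675 to 497, 516 and 493 CPM with no overlap, yet its value of -0.42 did not pass (SE 0.18, adjusted p = 0.0867). HNRNPM did not pass without a block (-0.62, adjusted p = 0.0561) and passed with it (adjusted p = 0.0393).

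Of the 8 developmental regulators, 7 had a value below zero in CTCFL-KD. There 3 fell and 1 rose, or 37.5% and 12.5%, against 16.8% and 21.4% of all genes. MBNL1 (ENSG00000152601.17, chr3:152243828-152465780, plus strand), which favours adult splice patterns in muscle, had 144, 140 and 151 CPM in Control, 133, 106 and 107 with CTCFL-OE and 50.5, 76.3 and 79.8 with CTCFL-KD. It fell by 1.08 on the log2 scale in CTCFL-KD (SE 0.20, adjusted p = 0.00219), by 0.89 without CTCFL-KD replicate 1 and by 0.65 with length and GC offsets, and it passed in each case although the last 2 values are under the DEG limit. MBNL2, its paralog, fell by 0.63 (adjusted p = 0.0406), and did not pass with the replicate block (adjusted p = 0.0597) or with the offsets (-0.20). ESRP2, the splicing regulator of epithelial isoforms, rose from 60.1, 59.2 and 57.1 to 71.7, 100 and 88.8 CPM (0.57, SE 0.17, adjusted p = 0.0231), without overlap, and had 0.41 with the offsets, where it did not pass (adjusted p = 0.0554). ESRP1, its more abundant paralog from the other splicing lists, did not pass in CTCFL-KD (-0.10, SE 0.18, adjusted p = 0.696). QKI (-0.86, SE 0.32, adjusted p = 0.0560), RBFOX2 (-0.56, adjusted p = 0.0565), CELF1 and MBNL3 did not pass. In QKI, CTCFL-KD replicate 1 had 11.8 CPM and the others 29.5 and 36.9, below a Control range of 44.6 to 50.6. QKI passed without that library (-0.51, adjusted p = 0.0132) and with the replicate block (adjusted p = 0.0489).

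RBM20 moved in opposite directions in the 2 conditions. It had 70, 106 and 81 counts in Control, 332, 225 and 140 with CTCFL-OE and 1, 22 and 16 with CTCFL-KD, or 3.51, 4.12 and 4.10 CPM, 15.1, 11.8 and 8.60 CPM, and 0.0902, 1.31 and 0.876 CPM. The 3 groups did not overlap at any point, with means of 3.91 ± 0.349, 11.8 ± 3.27 and 0.758 ± 0.617 CPM (SD, n = 3). Its log2 fold change was 1.60 in CTCFL-OE (SE 0.38, adjusted p = 0.0747), 3.03-fold higher, and -2.25 in CTCFL-KD (SE 0.46, adjusted p = 0.00337), 4.77-fold lower. CTCFL-KD against CTCFL-OE gave -3.85 (SE 0.46, adjusted p = 0.00019). The fall in CTCFL-KD passed without any single library, with values from -2.80 to -1.84. In contrast, the rise in CTCFL-OE kept its size without any single library (1.37 to 1.77) but did not pass without Control replicate 1 (adjusted p = 0.312), 2 (0.267) or 3 (0.305), or without CTCFL-OE replicate 2 (0.261) or 3 (0.149), nor with the replicate block (adjusted p = 0.101). On the per-kb scale RBM20 in CTCFL-OE, at 1.62 ± 0.448 CPM per kb, stood beside MBNL3 with 1.29 ± 0.202 at the lower end of the members.

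**Figure D3:**
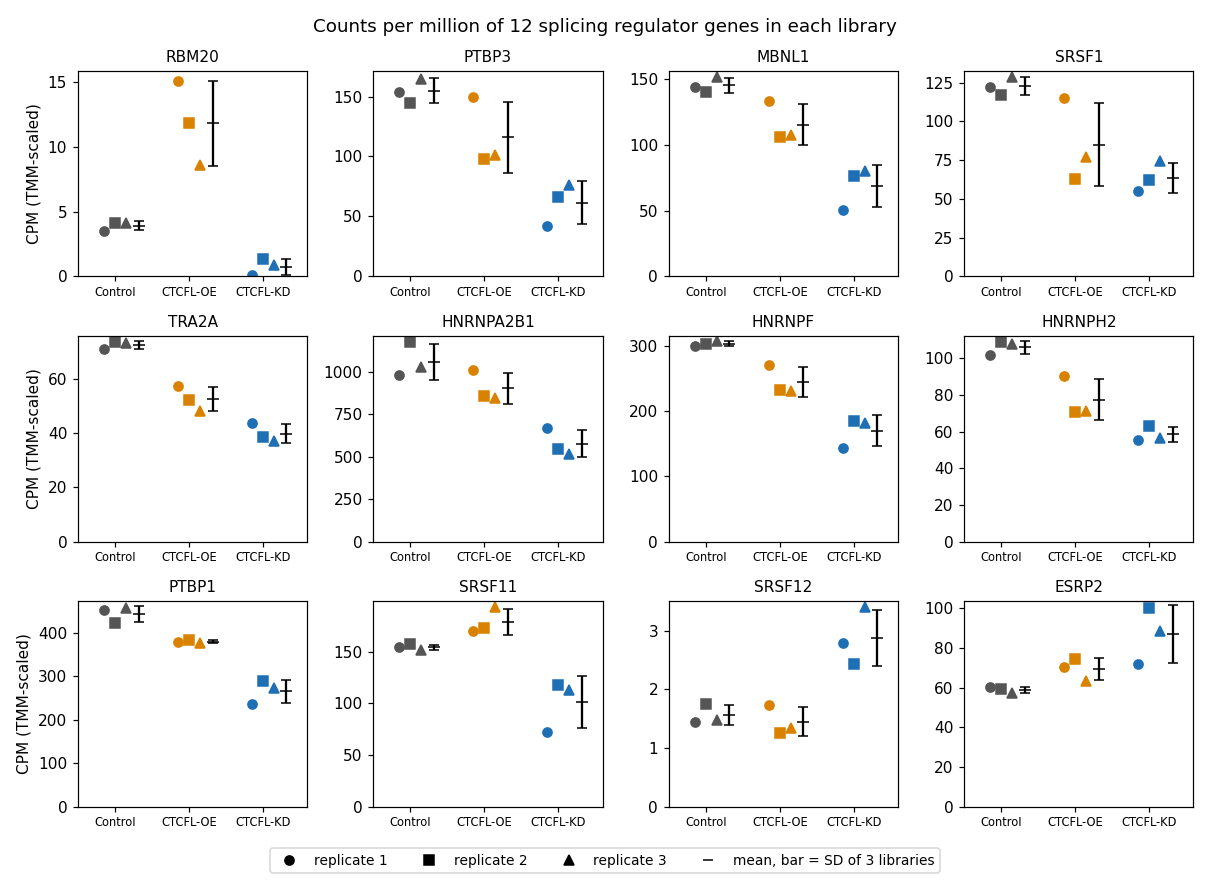
CPM after TMM scaling of 12 members in each of the 9 libraries, with markers for the replicate number and a dash and bar for the mean and SD of 3 libraries. RBM20 is at 8.60 CPM or more in every CTCFL-OE library and at 1.31 CPM or less in every CTCFL-KD library, and in the 8 genes from PTBP3 to PTBP1 every CTCFL-KD library lies below every Control library.

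CTCFL-OE against Control asked the same with CTCFL in excess. RBM20 was the 1 member of 49 that passed at an adjusted p under 0.1, and it was also a DEG, while with the replicate block 0 passed and 2.39% of all genes did. Among all genes tested, 3.15% passed (1.99% higher and 1.16% lower) and 2.07% were DEGs. On the higher side alone 1.37% of all genes were DEGs. At an unadjusted p under 0.05 stood 8 members, or 16.3%, against 17.7% of all genes. The median log2 fold change of the members was -0.25, that of all genes -0.01 and that of the abundant coding genes -0.08, and 39 of the 49 values were below zero. All CTCFL-OE libraries lay below all Control libraries in 28 members (57.1%), against 20.8% of all genes and 28.4% of the abundant coding genes, and above them in 6, where 16.3% of all genes did.

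How many members passed in CTCFL-OE depended on which libraries entered the fit. Without CTCFL-KD replicate 1, 20 of the 49 passed, 16 of them lower, where 13.4% of all genes fell and 14% rose. With Control and CTCFL-OE alone, 10 passed, 7 of them lower, where 20.2% of all genes passed in either direction. DESeq2 was run on all 54 members and on the 37834 genes with at least 1 count. It called 6 members (11.1%) and 3.63% of those genes. Of the 6, 5 were lower (9.26% of the members, against 1.33% of those genes). The fold changes changed little between these fits, with a median of -0.25 without CTCFL-KD replicate 1 and -0.21 for the 2 groups alone.

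After RBM20, the 4 members with the lowest p in CTCFL-OE were TRA2A, SRSF8, HNRNPH2 and TRA2B. TRA2A had 57.3, 52.3 and 48.3 CPM, all below the Control range of 71.0 to 73.6 (log2 fold change -0.46, SE 0.15, adjusted p = 0.162). SRSF8, an SR protein gene derived from a retrotransposed copy of SRSF2, had 22.6, 23.5 and 22.0 CPM in Control and 18.7, 14.7 and 16 in CTCFL-OE (-0.46, SE 0.16, adjusted p = 0.165). HNRNPH2 had 90.3, 70.5 and 71.2 CPM (-0.46, SE 0.16, adjusted p = 0.184), also under its Control range. TRA2B had 200, 162 and 178 CPM, below a Control range of 230 to 244 (-0.40, SE 0.16, adjusted p = 0.231). None of these 4 passed in the edgeR test above, and each of them passed without CTCFL-KD replicate 1, with Control and CTCFL-OE alone (adjusted p = 0.039 to 0.08) and by DESeq2 on all 9 libraries (adjusted p = 0.0349 to 0.0845). With length and GC offsets TRA2A (adjusted p = 0.0631) and HNRNPH2 (adjusted p = 0.0891) passed. Members whose CTCFL-OE libraries were all above Control were RBM20, SRSF2, SRSF4, SRSF11, PTBP2 and ESRP2, of which SRSF4, with 39.1, 39.5 and 36.5 CPM in Control and 50.3, 52.4 and 45.2 in CTCFL-OE, had a log2 fold change of 0.36 (SE 0.16, adjusted p = 0.274).

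Library by library, the lower level was not equally strong. Relative to the Control mean, the median member stood at 0.935 in CTCFL-OE replicate 1 and at 0.804 and 0.791 in replicates 2 and 3, while mitochondrial genes took 7.40% of the counts in replicate 1 and 12.4% and 14.9% in replicates 2 and 3. The median ratios over all genes tested were 0.981, 0.980 and 0.972 in the same libraries, and those over the abundant coding genes 0.965, 0.926 and 0.917. In CTCFL-KD the median member stood at 0.675, 0.696 and 0.644, all genes at 1.03, 1.0 and 0.991 and the abundant coding genes at 0.957, 0.933 and 0.936. The part of the mitochondrial share in these values was not tested.

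Transcript length separated the members in CTCFL-KD replicate 1. There, the 24 members with a canonical transcript longer than 3744 bases had a median ratio of 0.582 to Control, and the 25 shorter ones 0.854. In replicate 2 the values were 0.695 and 0.696, and in replicate 3 they were 0.715 and 0.632. The median member was thus below Control in all 3 knockdown libraries, and the gap between longer and shorter transcripts was widest in replicate 1. Across the 49 members of a library, which share its depth and scaling, length and the ratio to the other libraries of the group had a Spearman correlation of -0.54 in CTCFL-KD replicate 1, 0.436 in replicate 2 and 0.57 in replicate 3. In Control these values were -0.195, -0.194 and 0.506, and in CTCFL-OE 0.334, -0.299 and -0.162. A library is compared here with its own group, so the 3 values of a group are not independent.

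**Figure D4:**
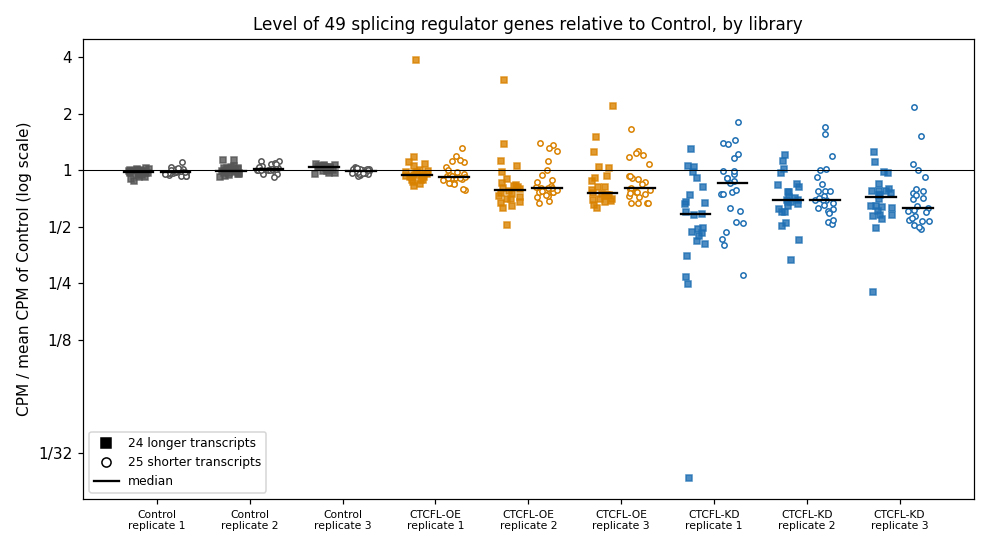
Ratio of each member's CPM to its mean in Control (log axis) in the 9 libraries, split into 24 members with longer and 25 with shorter canonical transcripts, with the median as a line. The longer transcripts lie lower than the shorter ones in CTCFL-KD replicate 1 (medians 0.582 and 0.854) and level with them in replicate 2 (0.695 and 0.696).

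The count of 25 members in CTCFL-KD moved with single libraries too. Without CTCFL-KD replicate 1, all 25 passed again and 14 more did, 39 in all, where 49.9% of all genes passed. Without Control replicate 1, 2 or 3, 13 passed in each case (26.5%), where 26.8%, 26.7% and 25.8% of all genes passed. Of the members that passed, 13, 12 and 13 were lower, against 11.5%, 11.5% and 10.8% of all genes, and the lost calls had adjusted p-values of 0.0520 to 0.123. Without CTCFL-KD replicate 2 or 3, 17 of the 25 passed in each case, where 34.6% and 34.8% of all genes did, with 0.0521 to 0.0857 for those lost, and without CTCFL-OE replicate 2, HNRNPLL and MBNL2 did not pass (0.0544 to 0.0565). SRSF1, SRSF10, TRA2A, HNRNPA2B1, HNRNPF, HNRNPH2, PTBP1, PTBP3, HNRNPR, MBNL1 and RBM20 passed in all 9 of these fits. With length and GC offsets 22 members passed (44.9%), 16 of which were among the 25, where 45.3% of all genes passed. On the lower side these were 21 members (42.9%) and 22.1% of all genes. The median of the members was then -0.35 in CTCFL-KD and -0.14 in CTCFL-OE, where all genes had -0.01 and 0.01. SRSF11, TRA2B, HNRNPA2B1, HNRNPA3, HNRNPLL, HNRNPR, HNRNPU, ESRP2 and MBNL2 did not pass with them.

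CTCFL-KD against CTCFL-OE compared the depleted and the overexpressing cells directly. Here 12 of the 49 members passed at an adjusted p under 0.05, 10 lower and 2 higher, where 26.8% of all genes passed (11.5% lower and 15.3% higher). The lower genes were SRSF10, SRSF11, HNRNPA2B1, HNRNPDL, HNRNPF, HNRNPH1, PTBP1, PTBP3, MBNL1 and RBM20, and the higher ones SRSF8 and SRSF12. Of these, SRSF10 (adjusted p = 0.0616), HNRNPF (0.0662), PTBP1 (0.061) and SRSF8 (0.0697) did not pass with the replicate block, and PTBP2 passed with it (-0.85, adjusted p = 0.0434). The same 4 genes and HNRNPA2B1 did not pass without Control replicate 1, 2 or 3. RBM20 was the 1 DEG, where 6.42% of all genes were DEGs on the lower side. The count went from 4 without CTCFL-OE replicate 2 to 27 without CTCFL-KD replicate 1, and was 7 without Control replicate 1, 2 or 3, 6 without CTCFL-OE replicate 1 or CTCFL-KD replicate 3, and 1 with CTCFL-KD and CTCFL-OE alone. The share of all genes that passed was 17.3% without CTCFL-OE replicate 2, 39.7% without CTCFL-KD replicate 1, 21.9% without a Control replicate, 23.3% and 23.9% in the next 2 fits and 15.5% with the 2 groups alone. RBM20 and SRSF11 passed without any single library, and SRSF11 did not pass with the 2 groups alone (adjusted p = 0.0634).

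SRSF11, an SR protein that contacts splice site recognition factors, was the member that, beside RBM20, had every CTCFL-OE library on one side of all Control libraries and every CTCFL-KD library on the other, as 3.29% of all genes did. It had 154, 157 and 152 CPM in Control, 170, 173 and 193 with CTCFL-OE and 72.2, 118 and 113 with CTCFL-KD. No library of one group reached into another. The rise in CTCFL-OE did not pass (log2 fold change 0.21, SE 0.20, adjusted p = 0.608), the fall in CTCFL-KD did (-0.61, SE 0.20, adjusted p = 0.0333), and the difference between them was -0.82 (SE 0.20, adjusted p = 0.0121). The fall in CTCFL-KD was -0.30 with the offsets (adjusted p = 0.0851) and did not pass there, nor without Control replicate 1, 2 or 3.

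Other splicing genes were set beside the members in 4 lists with 91 tested genes of 100. In CTCFL-KD 25 of them fell and 8 rose, or 27.5% and 8.79%, with a median log2 fold change of -0.20, where 16.8% of all genes fell and 21.4% rose with a median of 0.08. In CTCFL-OE 2 rose and 1 fell, or 2.20% and 1.10%, against 1.99% and 1.16% of all genes. Of 21 tested genes for splice site recognition by U1, U2, U2AF and SF1, 4 fell (19.0%, near the 16.8% of all genes), among them SF3B1 (-0.73, SE 0.22, adjusted p = 0.0204) and U2AF2 (-0.53, adjusted p = 0.0247), and of 17 in the tri-snRNP and Prp19 complex 4 fell (23.5%) and 1, PRPF31, rose. PRPF31 had 505, 217 and 201 CPM in CTCFL-KD against 144 to 150 in Control (1.07, SE 0.31, adjusted p = 0.0195), and the value without CTCFL-KD replicate 1 was 0.51 (adjusted p = 0.00203).

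Of 9 kinases that phosphorylate SR proteins, 3 rose and 2 fell in CTCFL-KD, or 33.3% and 22.2%, against 21.4% and 16.8% of all genes. CLK1, a nuclear kinase of SR proteins, was the kinase that passed in both conditions. It had 25.9, 29.0 and 25.3 CPM in Control, 40.5, 56.5 and 59.4 with CTCFL-OE and 32.7, 46.0 and 50.4 with CTCFL-KD, with log2 fold changes of 0.96 (SE 0.21, adjusted p = 0.0586) and 0.69 (SE 0.21, adjusted p = 0.0252). CLK3 and CLK4 rose in CTCFL-KD by 0.61 and 0.87 on the log2 scale, while SRPK1, a cytoplasmic SR protein kinase, fell by 0.63 and SRPK3, its relative in muscle, by 1.78 (adjusted p = 0.00353).

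Among 44 tested other regulators of alternative splicing, 15 fell and 4 rose in CTCFL-KD, or 34.1% and 9.09%, against 16.8% and 21.4% of all genes. The DEGs among them were ELAVL3, ELAVL2, CELF5, RBFOX3, KHDRBS3, CELF4, PCBP3, SRRM3, NOVA2 and FUBP1. Of these, 4 were higher and 6 lower, where 23.2% of all genes were DEGs, 15.3% higher and 7.94% lower. ELAVL3 had 0, 1 and 2 counts in Control, 0, 1 and 0 with CTCFL-OE and 17, 37 and 39 with CTCFL-KD. It had enough reads for testing through the CTCFL-KD libraries alone, so its call there carries no separate weight. Its paralog ELAVL2 had 53, 68 and 48 counts in Control and 0, 4 and 3 in CTCFL-KD (adjusted p = 6.9e-05). CELF5 rose in CTCFL-KD (2.03, SE 0.28, adjusted p = 0.0003) and in CTCFL-OE (1.20, SE 0.28, adjusted p = 0.0688), and RBFOX3, the neuronal relative of RBFOX2, fell in both (-1.02, adjusted p = 0.00442, and -1.09, adjusted p = 0.0447). All CTCFL-KD and CTCFL-OE libraries of these 2 genes lay on the same side of Control. In CTCFL-KD, KHDRBS3 (2.11) and CELF4 (1.49) were also higher, and PCBP3 (-2.40), SRRM3 (-1.42), NOVA2 (-1.26) and FUBP1 (-1.07) lower, each with an adjusted p under 0.05. Without CTCFL-KD replicate 1 FUBP1 had -0.89, under the DEG limit. Most of these genes were low, with at most 13.1 CPM in Control for NOVA2 and 6.01 for SRRM3, whereas FUBP1 had 220 to 227 CPM.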

How the data were processed

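RNA-seq counts of 9 OVCAR3 libraries were used, with 3 libraries per condition. The authors used Trimmomatic for trimming, STAR for alignment to GRCh38 and featureCounts for counting per gene, and deposited the raw counts. The submitters' processing notes also name kallisto, with no role given. The annotation release, the strand setting of the counting and the handling of multi-mapping reads are not given in the sources used here. Symbols, positions, transcript lengths and GC content were taken from GENCODE release 44 (60463 of 60660 identifiers matched), and promoter windows from RefSeq (GRCh38.p14).

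Genes were kept by filterByExpr (17794 genes), scaled by TMM and fitted with edgeR 4.0.16 in R 4.3.3 (glmQLFit, robust) over all 9 libraries with the condition as the factor. Adjusted p-values in the text come from this edgeR quasi-likelihood test, adjusted after Benjamini-Hochberg over all genes tested, unless DESeq2 1.42.0 is named. Passing meant an adjusted p under 0.1 for CTCFL-OE and under 0.05 otherwise, and a DEG also needed an absolute log2 fold change above 1, as in the study's methods, which used DESeq2. The step was also run on simulated counts. These held no length or GC trend and no outlying library, so that run cannot speak to either. CPM values are TMM-scaled. A count of 0 allows up to 3 counts, and such limits cover counting error only. Tables were made with Python 3.11.15 and pandas 2.3.3, and figures with matplotlib 3.10.9.

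Named members were the DEGs, the 10 lowest p-values in CTCFL-KD, the 5 lowest in CTCFL-OE and the 6 highest levels per length, with up to 12 DEGs of the other splicing lists. Further members were named after their values were seen. The members and lists were chosen with earlier results of these data known. The alternatives were DESeq2, the 2 groups alone, RLE and upper-quartile scaling, other count filters, length and GC offsets, the replicate block and each library left out. Same-numbered Control and CTCFL-KD libraries deviated together from their group means over 11441 genes (r = 0.387, 0.218 and 0.275, and 0.147, 0.152 and 0.132 once length and GC trends were taken out), so values with the replicate number as a block are given where they change a call, although the paper describes CTCFL-KD as a separate experiment. All other calls come from the fit without the block.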

Additional observations from a re-analysis of the deposited data

Results flagged for a closer look

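In 2 of the 49 tested members every CTCFL-OE library lay on one side of all Control libraries and every CTCFL-KD library on the other, and CTCFL-KD against CTCFL-OE passed. The same arrangement, whether or not the difference passed, was seen in 3.29% of all genes tested, so 2 of 49 is near that share. RBM20 was above all Control libraries in every CTCFL-OE library and below them in every CTCFL-KD library, and the test of CTCFL-KD against CTCFL-OE gave a log2 difference of -3.85 (SE 0.46, adjusted p = 0.00019). SRSF11 showed the same arrangement with a smaller difference of -0.82 (SE 0.20, adjusted p = 0.0121), which did not pass with the 2 groups alone (adjusted p = 0.0634).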

How the results depend on the processing

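Counts of members that passed moved with single libraries of all 3 groups, and RBM20 rested on 1, 22 and 16 counts in CTCFL-KD. The causes of the changes below were not tested. In CTCFL-OE against Control, where 1 member passed, 6 passed by DESeq2, 10 with the 2 groups alone, 0 with at least 10 counts in every library (which leaves RBM20 out), 0 with the replicate block, 3 with length and GC offsets and 3 with both, and 0 to 20 with 1 library left out. In the same order, 3.63%, 20.2%, 3.3%, 2.39%, 11.4%, 10.6% and 0.24% to 27.4% of all genes passed. DESeq2 shares are over all 54 members and the 37834 genes with at least 1 count. DEGs there were 0 with the stricter filter, 0 with the block and 0 to 1 with 1 library left out. Of all genes, 1.84%, 1.7% and 0.24% to 6.45% were DEGs in these fits. In CTCFL-KD against Control, 13 to 39 members passed and 2 to 5 were DEGs with 1 library left out (5 without CTCFL-KD replicate 3), and 26 passed with the replicate block, where HNRNPD, HNRNPM and QKI were gained and HNRNPLL and MBNL2 lost. Of all genes, 25.8% to 49.9% passed and 19.9% to 24.7% were DEGs with 1 library left out, and 36.9% passed with the block. By DESeq2, 32 of 54 members passed (59.3%), 30 of them lower, where 19.9% of the genes with at least 1 count passed. In CTCFL-KD against CTCFL-OE, 20 members passed by DESeq2, 1 with the 2 groups alone, 19 with offsets and 4 to 27 with 1 library left out, and DEGs were 0 with the stricter filter, 2 with offsets, 2 with offsets and block and 1 to 3 with 1 library left out. With the block, 9 passed there (18.4%), where 25.6% of all genes did. RBM20 in CTCFL-OE had an adjusted p of 0.101 with the block. For Control and CTCFL-OE the same-number correlations were -0.0424, 0.232 and -0.0471, and replicates 1 and 3 correlated best with another number.

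Among the genes named by rule, values near zero changed sign: SRSF8 in CTCFL-KD (0.01) became -0.03 by DESeq2, -0.01 by RLE, -0.06 without a filter and -0.02 to 0.03 with 1 library left out. HNRNPA1 in CTCFL-KD against CTCFL-OE became 0.01 with offsets. HNRNPC there became 0.09 with offsets, 0.06 with offsets and block, and -0.24 to 0.04 with 1 library left out (0.04 without CTCFL-OE replicate 1, 0.01 without CTCFL-KD replicate 3). In CTCFL-OE, HNRNPH1 ranged from -0.12 (without CTCFL-OE replicate 3) to 0.15 (without CTCFL-OE replicate 1), and SRRM3 -0.00 with offsets and block. Of the other values of the genes named by rule and of CTCFL, 1204 kept their direction and side of the threshold, 55 gained and 92 lost a call. Members outside this tally changed sign too. In CTCFL-KD these included HNRNPA0 (-0.17, and 0.26 with offsets), SRSF6 (-0.25 and 0.14), SRSF3 (-0.43 and 0.02) and PTBP2 (-0.34 and 0.02). None of these 4 passed in either fit.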
